A study of Betula luminifera with 4 samples.

Results

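Purple acid phosphatases (PAPs) of the birch Betula luminifera are described here as assembled contigs in 4 poly(A) RNA libraries. Every contig whose Swiss-Prot description, or whose Nr description where Swiss-Prot gave none, contained the words purple acid phosphatase was taken, which gave 51 of 76899 contigs. Swiss-Prot named 45 of them and Nr named the other 6. They carried 17 protein names and were 208 to 2563 bp long, with 19 of at least 1000 bp and 15 under 400 bp. The best protein match of all 51 was a eudicot sequence, and for 33 it was walnut (Juglans). The rule used annotation alone and no expression value.

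The plants belonged to a single clone, G49#, raised from tissue culture in sand. The CK groups received a mineral medium with 1.25 mM KH2PO4 and the LP groups the same medium with 0 mM, with K2SO4 supplying the potassium. All plants had started as seedlings of 2 months and, before the treatment, had received 2 weeks of normal medium and 2 weeks of water alone. The libraries were CK roots, LP roots, CK shoots and LP shoots, 1 each, and each shoot library mixed stem and leaf RNA in equal parts. The study had 54 plants in a block layout with 3 replicates, but how many plants made up a library, and how long the treatment ran, is not stated in the labels. Stem and leaf cannot be separated in these values.

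PAPs are metal-dependent enzymes that cleave phosphate from organic phosphate esters at acid pH. Plants hold many of them, some secreted from roots and some kept in the vacuole, and in Arabidopsis several are made in larger amounts when phosphate runs short, under the control of PHR transcription factors. Small PAPs of about the size of the animal enzyme (PAP3 and PAP17) are distinguished from larger ones that act as dimers (such as PAP26). Swiss-Prot calls a further set "probable inactive" from sequence. That label is an annotation and no activity was measured here.

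Values are TPM, shares of a library's transcripts corrected for length, which allow levels of different contigs to be set side by side. With 1 library per group there is no replicate spread, and every difference compares these libraries without a replicate check. A contig counts as higher or lower where it reached 1 TPM in either library and log2 of the ratio, after adding 1 TPM to both values, was at least 1 in size. The verbs below follow this size rule, which is no test. Low values of contigs of equal length lay on whole multiples of a step, which gave the number of sequenced fragments behind each value: 1 TPM of a 400 bp contig was 5.89 fragments in CK and 11.3 in LP roots, and 4.79 in CK and 5.71 in LP shoots. The intervals printed beside folds are 95% counting intervals from these fragments. They cover counting error only, not the variation between plants, and are extrapolated above 520 bp.

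Library facts bear on the reading. Contigs above 0 numbered 26711 in CK and 56647 in LP roots, and 39046 in CK and 50435 in LP shoots. Detected single-transcript contigs of up to 300 bp had a median of 123 fragments in CK roots, while LP roots had 34, CK shoots 20 and LP shoots 18. Contigs with a eudicot match held 65.8% of the TPM in CK and 51.4% in LP roots, and 82.2% in CK and 78.5% in LP shoots. Over 12932 such contigs of at least 1 TPM everywhere, the median log2 level relative to each contig's mean over the 4 libraries gave a factor per library. The factor of LP less that of CK was -0.63 log2 units in roots and 0.11 in shoots. Log2 ratios called scaled divide the TPM by these factors before 1 TPM is added. At low levels they therefore differ from the unscaled ratios by other amounts than these. The shoot libraries held the photosynthesis markers: an 830 bp contig of RBCS1, a rubisco small subunit, stood at 7979 TPM in CK and 4604 in LP shoots, and 0.90 in CK and 16.5 in LP roots.

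The summed level of all 51 PAP contigs was 717 TPM in CK shoots and 1119.6 TPM in LP shoots, a 1.56-fold difference and a log2 ratio of 0.64 (0.53 scaled). In roots the sum was 576 TPM in CK and 357 TPM in LP, 1.61-fold lower. The log2 ratio was -0.69, or -0.06 scaled. Shoots without phosphate thus held the highest summed level and roots without phosphate the lowest. Fewer cells with a transcript and less RNA per cell cannot be told apart in these tissue libraries. The family made up 0.0576% of TPM in CK and 0.0358% in LP roots, and 0.0717% in CK and 0.112% in LP shoots.

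**Figure D1:**
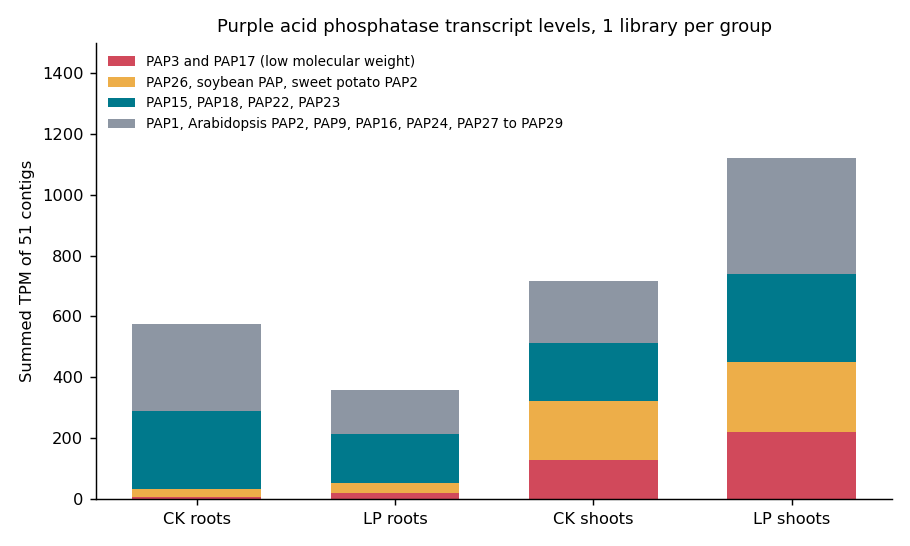
Summed TPM of the 51 PAP contigs (vertical axis, from 0) in each of the 4 libraries, stacked by group of protein names; each bar is 1 library and has no error bar. The LP shoot bar reaches 1119.6 TPM and the LP root bar 357 TPM, and PAP3 with PAP17 takes 219.8 TPM of the first and 19.6 TPM of the second.

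The makeup of the family differed between libraries. In CK roots 24 of the 51 contigs were above 0, and PAP15 (1962 bp) and PAP28 (1166 bp) together held 36.7% of the family sum. In LP roots 37 contigs were above 0, and a PAP9-named contig of 2563 bp and a PAP18 contig of 734 bp led with 39.1%. CK shoots had 41 contigs above 0 and LP shoots 46. There the PAP18 contig of 734 bp came first in both, followed by a PAP26 contig of 632 bp in CK shoots and by a PAP3 contig of 1251 bp in LP shoots. Levels above 0 in every library were seen for 21 contigs. Listed at 0 in both root libraries were 13, of which 8 were under 400 bp, and listed at 0 in both shoot libraries were 2, both under 400 bp. Over all 76899 contigs the number above 0 also rose from CK to LP, from 26711 to 56647 for roots and from 39046 to 50435 for shoots. How many of these were above 0 everywhere, or at 0 throughout a tissue, was not computed. The PAP counts of 21, 13 and 2 therefore have no background beside them.

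In shoots, 48 of the 51 contigs reached 1 TPM in CK or LP. Without phosphate 23 of them were higher, 5 lower and 20 neither. Of all contigs tested 40.1% were higher and 23.0% lower, and of contigs with a eudicot match 26.4% and 21.1%, against 47.9% and 10.4% of the PAPs. The median log2 ratio was 0.92 for the PAPs, 0.10 for contigs with a eudicot match and 0.39 for all contigs. Of the 23 higher contigs 7 were listed at 0 in CK, and of the 5 lower ones 3 were listed at 0 in LP. All 12 tested contigs under 400 bp were called, 8 higher and 4 lower. Of eudicot-match contigs that short 45.5% were higher and 35.1% lower, so the short contigs separate little. Among the 19 contigs of at least 1000 bp, 4 were higher and 0 lower. The background for that length was 11.4% higher and 10.6% lower, against 21.1% of these PAPs higher. The level was above CK in 15 of the 19 (13 when scaled), that is in 78.9%, against 53.7% of long eudicot-match contigs (48.1% when scaled).

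In roots, 36 of the 51 contigs reached 1 TPM. Without phosphate 15 were higher and 11 lower, beside a background of 64.2% higher and 22.4% lower for all contigs and of 40.0% and 33.8% for eudicot-match contigs. The PAP shares, 41.7% higher and 30.6% lower, lay close to the latter. The median log2 ratio over the 36 was 0.64, against 0.10 for eudicot-match contigs and 2.31 for all contigs. Of the 15 higher contigs 13 were listed at 0 in CK roots, while all 11 lower ones were above 0 in both libraries. Over the 23 contigs above 0 in both, 2 were higher and 11 lower, with a median log2 ratio of -0.65. Requiring a value above 0 in both removes 13 higher contigs and 0 lower ones, so this median is set in part by the filter. Among the 18 tested long contigs (1000 bp or more), 10 were lower and 2 higher, or 55.6% and 11.1%, with long eudicot-match contigs at 34.2% and 21.7%. The median log2 ratio of these 18 was -1.41, against -0.37 for the long eudicot-match contigs. When scaled, 9 long PAP contigs were lower and 4 higher, against 22.4% and 31.5% of long eudicot-match contigs.

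**Figure D2:**
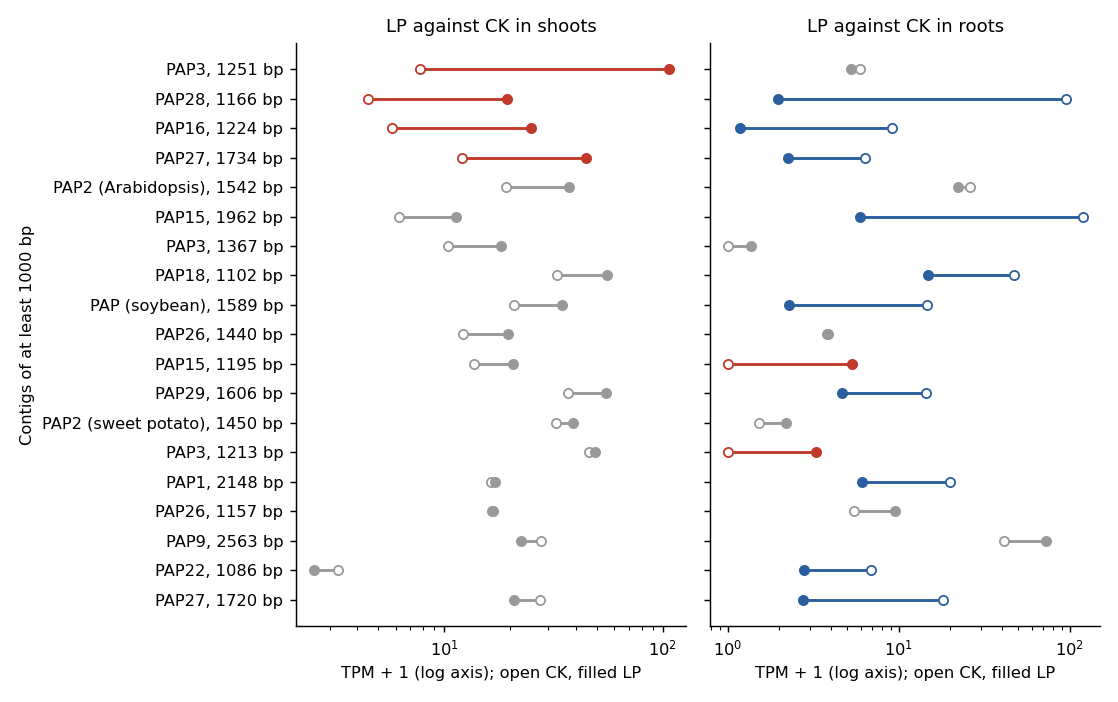
Level of each of the 19 PAP contigs of at least 1000 bp as TPM + 1 on a log axis, in CK (open circle) and LP (filled circle), in shoots (left) and roots (right); red lines are called higher in LP, blue lines lower and grey lines neither. In shoots 4 lines are red and none is blue, and in roots 10 are blue and 2 are red.

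The low molecular weight PAPs had most of their summed level in shoots and included the contig with the largest shoot difference among the long ones. The 8 contigs of PAP3 and PAP17 added up to 129 TPM in CK and 219.8 in LP shoots, and 6.37 in CK and 19.6 in LP roots. In shoots 4 were higher and 2 lower, beside 40.1% and 23.0% of all contigs and 26.4% and 21.1% of eudicot-match contigs. In roots 3 were higher and 0 lower of 5 tested, beside 64.2% and 22.4% of all contigs and 40.0% and 33.8% of eudicot-match contigs. All 3 of the root calls were of contigs listed at 0 in CK roots.

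The PAP3 contig of 1251 bp (TRINITY_DN25762_c1_g1) stood at 6.74 TPM in CK and 105 in LP shoots, and 4.93 in CK and 4.21 in LP roots. LP shoots therefore stood apart from the other 3 libraries, which were within a narrow range of each other. The shoot difference was 15.6-fold (13.6 to 18.0), a log2 ratio of 3.78 (3.64 scaled), and the root ratio was -0.19 (0.34 scaled). A PAP3 contig of 1213 bp behaved otherwise, with 44.9 TPM in CK shoots, 47.8 in LP shoots, 2.26 in LP roots and 0 listed in CK roots. It was level in shoots (1.06-fold, 0.993 to 1.14). The PAP3 contig of 1367 bp went from 9.38 to 17.2 TPM in shoots, short of the rule at a log2 ratio of 0.81. It stood at 0.37 TPM in LP roots and was listed at 0 in CK roots.

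The PAP3 contigs of 222 and 425 bp moved in opposite directions in shoots. That of 222 bp went from 40.0 to 1.36 TPM in shoots, which rests on 42 and 2 fragments (29.4-fold lower, 7.67 to 251), and from a listed 0 to 9.66 TPM in roots. It shares an assembly component with the 1213 bp contig, and summed over that component the shoot level was 84.9 TPM in CK and 49.1 in LP. That of 425 bp was listed at 0 in both CK libraries, and stood at 25.9 TPM in LP shoots and 2.38 in LP roots. Together the 5 PAP3 contigs had 101 TPM in CK and 197 TPM in LP shoots (log2 ratio 0.96).

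PAP17 is induced by phosphate shortage and by senescence in Arabidopsis. The 2 birch contigs of 1 component, of 547 and 741 bp, were both higher in shoots. The first went from 1.82 to 10.6 TPM (5.83-fold, 3.48 to 10.3) and the second from 1.10 to 11.8 TPM (10.7-fold, 6.50 to 18.5). In roots the first was listed at 0 in both libraries and the second stood at 1.44 and 0.74 TPM. Another PAP17 contig, of 233 bp, had 25.3 TPM (30 fragments) in CK shoots and was listed at 0 elsewhere. With it the PAP17 sum was 28.3 TPM in CK shoots and 22.4 in LP shoots, whereas without it the component sum was 2.92 and 22.4 TPM. Whether PAP17 as a whole was higher in LP shoots thus turns on that single short contig.

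The larger acid phosphatases PAP26, soybean PAP and sweet potato PAP2 also had most of their summed level in shoots, and most did not pass the rule in shoots. Their 8 contigs added up to 192 TPM in CK shoots and 231 in LP shoots, and to 24.7 and 31.7 TPM in CK and LP roots. In shoots 1 of 8 was higher and 0 lower, beside 26.4% and 21.1% of eudicot-match contigs. PAP26 is the main vacuolar and secreted acid phosphatase of Arabidopsis. Its 5 contigs added up to 131 TPM in CK and 151 in LP shoots, and 9.97 in CK and 29.3 in LP roots.

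The most abundant PAP26 contig, of 632 bp with the C-terminal PAP domain, had 89.8 TPM in CK and 78.0 in LP shoots, and 0.40 in CK and 4.39 in LP roots. A contig of 546 bp from the same component, with the N-terminal domain, had 10.2, 33.1, 2.22 and 9.02 TPM in that order. In shoots the N-terminal contig was thus 3.25-fold higher (2.60 to 4.13) and the C-terminal one was at 0.869 of the CK level (0.800 to 0.945). The contigs of 1157 bp (15.7 and 15.6 TPM) and 1440 bp (11.2 and 18.7 TPM) were short of the rule in shoots. In roots 3 of the 5 PAP26 contigs were higher and none lower, beside 40.0% and 33.8% of eudicot-match contigs. All 3 were between 546 and 638 bp. The log2 ratio of the PAP26 sum in roots was 1.46 (2.07 scaled). The 1440 bp contig stood at 2.86 and 2.79 TPM, and the 1157 bp contig at 4.49 and 8.45 TPM, called only when scaled (log2 ratio 1.34).

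These root calls of shoot-abundant PAPs are set beside the shoot markers. Of 60 photosynthesis contigs, 32 were above 0 in CK roots and 46 in LP roots. By the size rule 23 of 44 tested were higher in LP roots and 12 lower, beside 40.0% and 33.8% of eudicot-match contigs. The marker sums were 820.3 TPM in CK and 4151 in LP roots. A single chlorophyll-binding contig (OsI_012078) held 187 and 3698 TPM of these, and without it the sums were 633 and 453 TPM. That contig stood at 3234 TPM in CK and 1612 in LP shoots, so its level in LP roots was above that in LP shoots. The part of shoot RNA in the PAP3 and PAP26 values of LP roots was not tested.

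Sweet potato PAP2 named a contig of 1450 bp with 31.3 TPM in CK and 37.6 in LP shoots, and 0.51 in CK and 1.18 in LP roots. Its shoot and root levels were far apart in both media. LP was 1.20-fold above CK in shoots (1.12 to 1.29) and 2.31-fold in roots (1.46 to 3.89), called in neither tissue. The soybean PAP contig of 1589 bp had 19.9 and 33.6 TPM in CK and LP shoots and 13.6 and 1.27 TPM in CK and LP roots. In shoots it was short of the rule, and in roots it was 10.7-fold lower (8.69 to 13.4). A soybean PAP contig of 418 bp stood at 9.40 and 8.30 TPM in shoots and at or under 0.61 TPM in roots.

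PAP15, PAP18, PAP22 and PAP23 form the next group, of 12 contigs, in which PAP15 and PAP23 of Arabidopsis have phytase activity, the release of phosphate from inositol phosphates. The group added up to 189.9 TPM in CK and 288 in LP shoots, and 257.5 in CK and 163 in LP roots. In shoots 5 of 10 tested contigs were higher and 0 lower, and in roots 4 of 8 were higher and 3 lower. Of eudicot-match contigs 26.4% were higher and 21.1% lower in shoots, and 40.0% and 33.8% in roots.

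The PAP15 contig of 1962 bp (TRINITY_DN25054_c1_g5) stood at 118 TPM in CK and 4.90 in LP roots, and 5.2 in CK and 10.4 in LP shoots. CK roots were high and the other 3 libraries low. The root difference was 24.04-fold (22.0 to 26.4), from 7641 and 496 fragments, a log2 ratio of -4.33 (-3.79 scaled). In shoots the ratio was 0.88, short of the rule, at 2.00-fold (1.74 to 2.30). The other PAP15 contigs did not share this pattern: that of 1195 bp, which Nr names PAP23, had 12.7 and 19.6 TPM in shoots, 4.29 in LP roots and was listed at 0 in CK roots. Those of 290 and 361 bp were listed at 0 in roots and higher in LP shoots, at 5.80 and 12.6 TPM and at 7.29 and 31.3 TPM. The shorter of these passed the rule narrowly (log2 ratio 1.002) and not when scaled (0.89).

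PAP18 was abundant in all 4 libraries. Its 734 bp contig had 87.8 TPM in CK and 68.4 in LP roots, and 115 in CK and 124 in LP shoots, short of the rule in both tissues (log2 ratios -0.36 and 0.11). The PAP18 contig of 1102 bp had 46.0, 13.7, 31.9 and 54.6 TPM in the same order. It was lower in LP roots, 3.35-fold (3.06 to 3.67), a log2 ratio of -1.68 (-1.08 scaled), and short of the rule in shoots at 0.76. The longer contig holds the catalytic metallophosphatase domain and the shorter the C-terminal one.

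PAP22 was the only protein name whose sum was highest in LP roots apart from the PAP9-named contigs: 71.6 TPM there and 5.86 in CK roots, against 6.86 and 20.9 in CK and LP shoots. Of the 71.6 TPM, contigs of 208, 210 and 561 bp gave 39.4, 22.0 and 8.50 TPM, on 73, 42 and 175 fragments. All 3 were listed at 0 in CK roots, where 3 fragments would have been 2.49, 2.44 and 0.251 TPM. The longest PAP22 contig, of 1086 bp, went the other way, from 5.86 to 1.77 TPM (3.31-fold lower, 2.56 to 4.30), with a log2 ratio of -1.31 (-0.87 scaled, then short of the rule). PAP23 had 1 contig of 670 bp, listed at 0 in roots and higher in LP shoots, at 5.15 and 14.9 TPM (2.89-fold, 2.19 to 3.81). A PAP22 contig of 326 bp, also at 0 in roots, went from 4.60 to 17.5 TPM in shoots.

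The names that Swiss-Prot calls probable inactive (PAP1, Arabidopsis PAP2, PAP9, PAP16, PAP24, PAP27, PAP28 and PAP29) covered 23 contigs. Of these, 6 have their name from Nr alone: PAP27 of 386, 397, 425 and 868 bp and PAP29 of 257 and 310 bp. Only that of 310 bp among them has a Pfam domain. The description used for naming says probable inactive for 22 contigs, and not for PAP29 of 257 bp. They added up to 205.3 TPM in CK and 381 in LP shoots, and 287 in CK and 143 in LP roots. In shoots 13 of 22 tested were higher and 3 lower, and in roots 5 of 16 were higher and 7 lower. The eudicot-match background was 26.4% higher and 21.1% lower in shoots, and 40.0% and 33.8% in roots.

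The PAP28 contig of 1166 bp (TRINITY_DN27593_c1_g1) stood at 93.3 TPM in CK and 0.96 in LP roots, and 3.49 in CK and 18.4 in LP shoots. It was 97.2-fold lower in LP roots (74.4 to 131; 3247 and 53 fragments) and 5.26-fold higher in LP shoots (4.25 to 6.54). PAP16, 1 contig of 1224 bp, had 8.05, 0.17, 4.81 and 23.9 TPM in the same order, and was 47.4-fold lower in LP roots (25.4 to 99.8; 298 and 10 fragments) and 4.98-fold higher in LP shoots (4.18 to 5.97). In both, LP roots were the lowest library, and scaling left every one of these calls in place.

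PAP27 carried the most contigs, 10, with sums of 71.2 TPM in CK and 141 in LP shoots, and 88.8 in CK and 23.5 in LP roots. The contig of 1734 bp, which Nr names a nucleotide pyrophosphatase/phosphodiesterase, went from 11.03 to 43.7 TPM in shoots (3.97-fold, 3.60 to 4.36) and from 5.34 to 1.23 TPM in roots (4.34-fold lower, 3.48 to 5.48). The contig of 1720 bp had 26.5 and 19.9 TPM in shoots, short of the rule, and 17.2 and 1.75 TPM in roots, 9.83-fold lower (8.28 to 11.7). A contig of 868 bp assembled as 9 transcripts went from 0.73 to 23.4 TPM in shoots (32.04-fold, 19.1 to 59.4) and stood at 15.4 and 9.47 TPM in roots. A contig of 386 bp was found in roots alone, at 47.7 and 5.07 TPM (9.41-fold lower, 6.97 to 12.9).

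PAP24 had 2 contigs, both highest in LP shoots. That of 609 bp, which Nr names PAP27, stood at 24.2 TPM there, 1.32 in CK shoots, 1.11 in LP roots and a listed 0 in CK roots (18.3-fold between shoots, 10.8 to 32.6). That of 258 bp stood at 9.82 TPM in LP shoots and was listed at 0 elsewhere. The PAP29 contig of 1606 bp had 35.9 and 53.8 TPM in shoots, short of the rule, and 13.5 and 3.66 TPM in roots, 3.68-fold lower (3.2 to 4.22). The PAP1 contig of 2148 bp was level in shoots (15.4 and 16.1 TPM) and lower in roots (19.0 and 5.07 TPM, 3.74-fold, 3.39 to 4.13).

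In shoots, PAP27 contigs of 277, 397 and 409 bp were higher in LP, at 19.5 and 17.5 TPM from a listed 0 and at 12.6 from 2.77 TPM. Those of 245 and 480 bp were lower, from 21.6 TPM to a listed 0 and from 5.13 to 1.23 TPM. The 397 bp contig was also found in roots (3.11 and 5.95 TPM), and a PAP27 contig of 425 bp stood at 3.44 and 3.01 TPM in shoots.

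The short PAP29 contigs moved apart in shoots, that of 310 bp from 17.4 TPM to a listed 0 and that of 257 bp from a listed 0 to 9.90 TPM. PAP1 contigs of 506 bp (9.34 to 19.9 TPM) and 587 bp (1.51 to 5.05 TPM) were higher in LP shoots, the first not when scaled (log2 ratio 0.90), and both were higher in LP roots (1.89 and 3.29 TPM) from a listed 0. A PAP9-named contig of 218 bp, which Nr names PAP27, was listed at 0 in both CK libraries and stood at 9.77 TPM in LP roots and 1.42 in LP shoots.

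Arabidopsis PAP2 sits on the outer membranes of chloroplasts and mitochondria. The birch contig named so, 1542 bp long, had 18.1 TPM in CK and 36.1 in LP shoots, and 24.9 in CK and 21.1 in LP roots, and with log2 ratios of 0.96 and -0.23 it was called in neither tissue. The PAP9-named contig of 2563 bp had 26.8, 21.5, 40.0 and 71.1 TPM in the same order and was short of the rule in roots at 0.82, but past it when scaled (1.43). Its identity as a PAP rests on Swiss-Prot alone: Nr names it transmembrane protein 87A, and its only Pfam domain is Lung_7-TM_R. Without it the family sum was 536 TPM in CK roots and 286 in LP roots, and 689.7 and 1098 TPM in CK and LP shoots. Of the other 50 contigs, 44 carried a metallophosphatase or PAP domain and 6 had no Pfam entry.

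**Figure D3:**
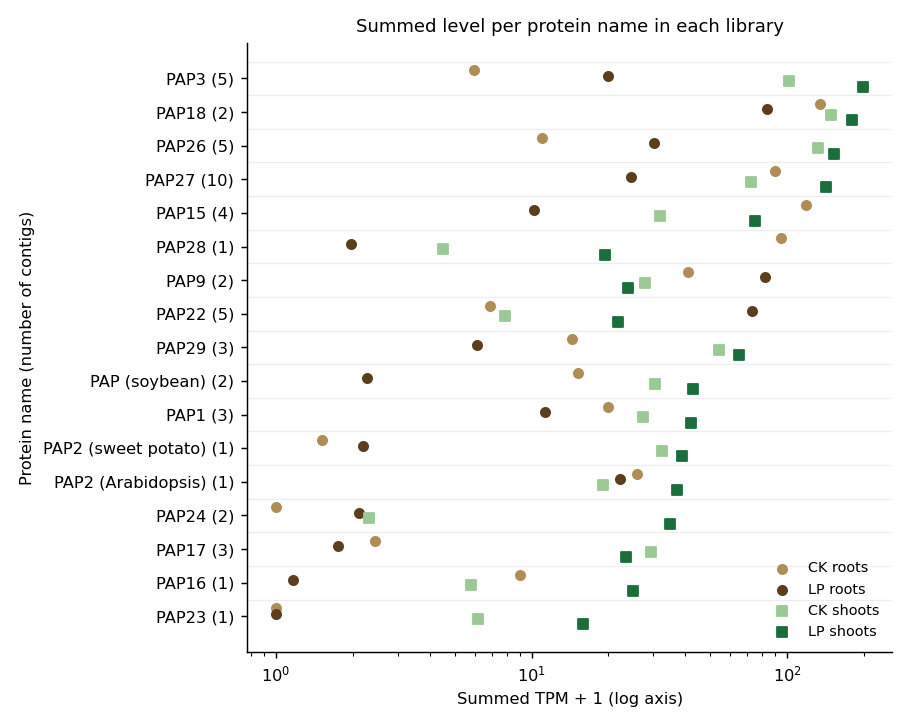
Summed TPM + 1 per protein name (log axis) in CK roots, LP roots (circles), CK shoots and LP shoots (squares), 1 library each, with the number of contigs in brackets. PAP28 spans 0.96 TPM in LP roots to 93.3 TPM in CK roots, while PAP18 stays between 82.2 and 179 TPM in all 4 libraries.

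Summed by protein name, 6 of 17 names were higher and 0 lower in LP shoots: PAP15, PAP16, PAP22, PAP23, PAP24 and PAP28, with log2 ratios of 1.23, 2.10, 1.48, 1.37, 3.91 and 2.11. PAP3 and PAP27 fell just short at 0.96 and 0.97. In LP roots 4 names were higher and 6 lower. The higher ones were PAP3 (1.75), PAP22 (3.40), PAP24 (1.08) and PAP26 (1.46). PAP24 rested on 1.11 TPM in LP roots from a listed 0. Of the 18.9 TPM of PAP3 in LP roots, 9.66 came from the 222 bp contig on 22 fragments. The PAP22 contigs that were higher were listed at 0 in CK roots, and its 1086 bp contig was lower. The lower ones were the soybean PAP (-2.74), PAP15 (-3.54), PAP16 (-2.95), PAP27 (-1.88), PAP28 (-5.59) and PAP29 (-1.24, or -0.70 when scaled). The sum of the 2 PAP9-named contigs reached 0.999 in roots, just short of the rule, and 1.62 when scaled. Nr gives neither of them the name PAP9. The share called among summed protein names over all contigs was not computed, so these counts of names have no background beside them.

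Levels in roots were also set against those in shoots. In CK, 6 of 43 tested contigs were higher in roots than in shoots and 26 lower, against a background of 26.5% higher and 54.2% lower over all contigs and 20.7% and 53.1% over eudicot-match contigs. The PAP share lower, 60.5%, was near that background, and 19 of the 26 lower contigs were listed at 0 in CK roots. PAP15 (1962 bp) was 22.7-fold higher in CK roots than in CK shoots (20.1 to 25.6) and PAP28 was 26.7-fold higher (21.9 to 32.9). The PAP26 contig of 632 bp was 224-fold lower in roots (100 to 598) on 6 root fragments, and the sweet potato PAP2 contig was 61.4-fold lower (41.1 to 98.1). Of the 19 long contigs 7 were lower in CK roots than in CK shoots and 3 higher, or 36.8% and 15.8%, with 41.0% and 15.5% of long eudicot-match contigs. In LP, 8 of 49 were higher in roots and 34 lower, beside 41.7% and 37.5% over all contigs and 20.3% and 53.5% over eudicot-match contigs. The PAP share lower was 69.4%, and 12 of the 34 were listed at 0 in LP roots. Of the 19 long contigs, 14 were lower in LP roots than in LP shoots and 1 higher, the latter being the PAP9-named contig at 3.30-fold (3.15 to 3.46). For this length the background was 52.5% lower and 9.70% higher. PAP28 was 19.1-fold lower in LP roots than in LP shoots (14.5 to 25.9) and the PAP3 contig of 1251 bp 25.0-fold lower (22.0 to 28.5). The tissue and medium comparisons share libraries, so they are not independent of each other.

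**Figure D4:**
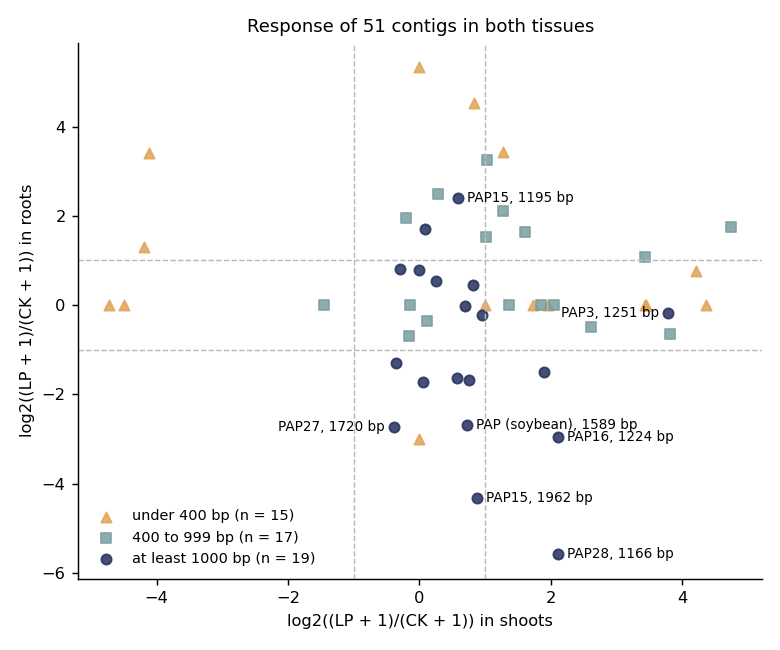
Log2((LP + 1)/(CK + 1)) of each of the 51 PAP contigs in shoots (horizontal) and roots (vertical), marked by contig length, with dashed lines at the size rule of 1. Long contigs lie mainly at or below 0 in roots and above 0 in shoots, with PAP28 at 2.11 and -5.59, while the contigs under 400 bp are spread along the axes and far from the origin.

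Other genes of the phosphate response were taken from lists set by protein name. The background for their shoot counts was 40.1% higher and 23.0% lower over all contigs, and 26.4% and 21.1% over eudicot-match contigs. In LP shoots, 8 of 12 tested PHT1 phosphate importers were higher and 4 lower (median log2 ratio 1.22), with PHT1-3 (712 bp) from 17.8 to 88.9 TPM and PHT1-4 (610 bp) from 12.9 to 0.08 TPM. Of 15 SPX and PHO1 contigs, phosphate sensors and exporters, 7 were higher and 0 lower (0.87), led by SPX2 (1202 bp, 6.06 to 56.97 TPM). Of 29 contigs of phospholipid breakdown 13 were higher and 4 lower (0.76), with GDPD1 (1410 bp) from 2.28 to 89.3 TPM and GDPDL7 (225 bp) from 39.6 TPM to a listed 0. Of 8 of galactolipid and sulfolipid synthesis 4 were higher and 0 lower (1.09), with DGD1 (574 bp) from 55.97 to 158.6 TPM. Of 9 non-purple acid phosphatases and pyrophosphatases 2 were higher, among them At1g17710 (28.8 to 96.8 TPM), and 2 lower, among them an APS1 contig of 1601 bp (33.3 to 10.5 TPM), with a median of -0.42. Nucleotide pyrophosphatases and apyrases had 3 of 12 higher, with APY6 from 26.1 to 56.1 TPM, and 1 lower, APY7 (668 bp) from 10.9 to 4.43 TPM (0.23). S-like ribonucleases had 0 of 5 higher and 3 lower (-3.25). PHR regulators had 1 of 6 higher, PHR2 from 27.6 to 60.2 TPM, and 0 lower (0.38). Root markers had 9 of 26 higher and 4 lower (0.36), and shoot markers 7 of 60 higher and 16 lower (-0.56). The PAP median of 0.92 in shoots lay within the range of these lists.

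In LP roots the background was 64.2% higher and 22.4% lower over all contigs, and 40.0% and 33.8% over eudicot-match contigs. Of 14 tested PHT1 contigs 11 were lower there and 3 higher (median -1.99). PHT1-8 (231 bp) went from 117 TPM to a listed 0 and PHT1-4 (308 bp) from a listed 0 to 13.0 TPM. SPX and PHO1 contigs had 7 higher and 3 lower of 15 (0.56), with At4g22990 (2629 bp) from 16.0 to 76.6 TPM and PHO1-H1 (313 bp) from 40.0 TPM to a listed 0. Nucleotide pyrophosphatases and apyrases had 8 of 13 lower and 4 higher (-1.37), with ENPP3 (1839 bp) from 119 to 38.6 TPM and APY7 (856 bp) from 5.98 to 18.5 TPM. Phospholipid breakdown had 9 of 23 lower, with GDPDL3 (1405 bp) from 349.8 to 159 TPM, and 8 higher, with NPC1 (873 bp) from 117 to 247 TPM (-0.67). Lipid synthesis had 2 of 10 lower, with DGD1 (574 bp) from 30.9 to 3.68 TPM, and 4 higher, with SQD2 (1935 bp) from 12.9 to 29.6 TPM (0.50). PHR regulators had 3 of 6 lower and 2 higher (-1.03), with PHR1-LIKE 1-like contigs of 405 bp from 74.4 to 6.23 TPM and of 789 bp from 1.04 to 44.6 TPM. Non-purple acid phosphatases and pyrophosphatases had 3 of 9 lower and 4 higher (0.80), with PPA1 (846 bp) from 84.8 to 21.0 TPM and a PPA1 contig of 265 bp from a listed 0 to 8.88 TPM. Of S-like ribonucleases 2 were tested, and RNS2 (1007 bp) was lower, from 47.1 to 17.5 TPM. Of 21 tested root markers, aquaporins among them, 11 were lower and 6 higher (-1.21), with sums of 5019.8 TPM in CK and 2738 in LP. PIP1-2 (1442 bp) went from 938 to 404 TPM and PIP2-6 (218 bp) from a listed 0 to 43.3 TPM. By count the root marker list did not separate the tissues. In CK, 6 of 22 tested were higher in roots than in shoots and 9 lower, and in LP 4 of 29 and 16. Its summed level in CK was 5019.8 TPM in roots and 2243 in shoots. The part of root tissue makeup in the lower PAP15 and PAP28 levels was not tested.

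Likeness of pattern was measured as the distance between mean-centred log2(TPM + 1) profiles over the 4 libraries, among 24975 contigs with a Swiss-Prot name. Nearest to the PAP15 contig of 1962 bp were At4g11170 (414 bp, distance 0.21), CKL1 (489 bp, 0.29) and CYP71D55 (548 bp, 0.30). The nearest to PAP28 were LHW (642 bp, 0.46), an RPPL1 contig (548 bp, 0.52) and GLR3.6 (617 bp, 0.53). For the PAP3 contig of 1251 bp they were RAD51D (316 bp, 0.14), MT-CYB (290 bp, 0.16) and RYR1 (314 bp, 0.17), all under 20 TPM in LP shoots and listed at 0 in roots. The names MT-CYB and RYR1 come from animal proteins.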

How the data were processed

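RNA of 4 libraries was sequenced as read pairs after poly(A) selection, per the labels' protocols. The submitters' processing notes name cutadapt 1.9 and FastQC. Which assembler, aligner or quantifier was used is not stated there. The authors deposited 1 table with TPM per assembled gene to 2 decimals, beside a contig length in bp and protein annotations, per the file headers. TPM are shares of a fixed total, so RNA of other organisms lowers birch values.

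From these, log2 ratios with a pseudocount of 1 TPM, sums, medians and counts were computed in Python 3.11.15 with pandas 2.3.3, numpy 2.4.6 and scipy 1.17.1. Contigs with a larger value under 1 TPM were not called. No p-value was computed, as each group is 1 library. Fragments per TPM were read from the step of single-transcript contigs of each length up to 520 bp and extrapolated beyond. Within the rounding of the table plus 0.02 fragments, 87.4% of low values (up to 10 fragments) were whole multiples in CK and 89.4% in LP roots, and 94.1% in CK and 98.4% in LP shoots, against 6.50%, 8.27%, 6.02% and 6.31% by chance. For contigs of several transcripts the fragment numbers are approximate. Fold intervals are exact conditional binomial intervals. The calling and fragment steps were tested on simulated data.

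Contigs of at least 5 TPM in some library (50 of 51) were to be described. For most lists the most abundant higher and lower contigs are named. The 3 nearest profiles are given for the most abundant long contig and for the largest log2 ratio in each tissue. Members, lists and rules were chosen with earlier results of these data known. Several contigs may be pieces of the same gene, and 19 of the 51 share 8 assembly components, so reads may be split between them. Alternatives are given in the closing section. The files hold no sequences, and none is printed.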

Additional observations from a re-analysis of the deposited data

Results flagged for a closer look

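Each of 5 contigs was called in opposite directions in shoots and roots, in 1 library a group, and the difference between tissues was not tested. Another 7 contigs were called higher in both tissues. The share of all contigs called in opposite directions was not computed, so the 5 have no background beside them. PAP28 (1166 bp) had log2 ratios of LP over CK of 2.11 in shoots and -5.59 in roots. PAP16 (1224 bp) had 2.10 and -2.95, and PAP27 (1734 bp) had 1.89 and -1.51. The PAP3 contig of 222 bp had -4.12 in shoots and 3.41 in roots, and the PAP29 contig of 310 bp -4.20 and 1.30. The last 2 are short, rest on a value listed at 0 in at least 1 library, and on at most 43 fragments in any library. The first 3 are over 1000 bp and above 0 in all 4 libraries. All 5 kept both calls with median scaling.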

How the results depend on the processing

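No paired analysis was possible because each group is 1 library, and for the same reason no replicate could be left out. The median log2 ratio in roots changed sign, from 0.64 to -0.65 with a minimum of 5 TPM, -0.19 with contigs of at least 400 bp, -0.59 summed per protein name and -0.65 over contigs above 0 in both libraries. No other median and no sum changed sign. Median scaling changed the sign of 4 contigs' log2 ratios in roots and 3 in shoots, none of them called. Of the counts, medians and sums under the alternatives, 95 stayed within 1.5 times the count, the binomial order interval of the median over contigs or the counting interval of the sum, and 37 moved beyond. The sign changes of the root median are counted among the 95, because its order interval ran from -0.65 to 1.64. That interval treats contigs as independent, which pieces of the same gene are not. Median scaling gave summed log2 ratios of 0.53 in shoots, -0.0628 in roots, -0.20 for roots against shoots in CK and -0.80 in LP. A log2 threshold of 2 left 12 contigs higher in LP shoots, and 8 higher and 6 lower in LP roots. With contigs of at least 400 bp, 15 were higher and 1 lower in LP shoots, 2 were higher in roots than in shoots in LP, and the summed ratios were 0.75, -0.99, -0.18 and -1.92 in the order above. Summed per protein name, 6 were higher and 0 lower in LP shoots and 4 higher and 6 lower in LP roots. Against shoots, 2 names were higher and 7 lower in CK roots (median -0.45), and 2 higher and 14 lower in LP roots. A minimum of 5 TPM left 6 contigs higher in LP roots, and a pseudocount of 0.1 TPM moved the median of roots against shoots in CK to -3.74.

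The other alternatives were chosen after seeing the data. With a phosphatase Pfam domain required, the summed ratios were 0.61, -1.05, -0.55 and -2.21, with 3 contigs higher in roots than in shoots in CK and 5 in LP. Over contigs above 0 in both libraries, 2 were lower in LP shoots and 2 higher in LP roots. Against shoots, 7 were lower in CK roots (median -0.38), and 5 higher and 22 lower in LP roots. The cause of these moves was not tested. For the counts of contigs and names in this section, shares over all contigs at the same setting were not computed. These counts therefore have no background beside them. Depth limits short contigs: 3 fragments of a 208 bp contig are 2.49 TPM in CK roots.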
